A study of Saccharomyces cerevisiae with 6 samples.

Results

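The 28 rows whose identifier is a Q followed by 4 digits are the genes and open reading frames of the yeast mitochondrial genome. They were taken by that identifier alone from the 6692 gene rows of each of 6 RNA sequencing libraries of Saccharomyces cerevisiae. All cells were MATa W303 with the marker alleles ura3-1, his3-11,15, can1-100, trp1-1 and ade2-1 and a mutant leu2. All also carried RIO1-AID, which fuses an auxin-inducible degron to Rio1, and PADH1-OsTIR1, a plant F-box protein driven by the ADH1 promoter. Rio1 is an essential kinase of small ribosomal subunit maturation, and auxin sends the tagged protein to the proteasome. Cultures grew at 23 °C in YPD, a rich glucose medium. The 3 Rio1-depleted libraries had received auxin (500 µM, 1 h), and the 3 control libraries had received none. The titles call the controls WT, whereas the description and source fields give the degron genotype for both groups. No library combined auxin with an untagged Rio1. No label ties the libraries to separate cultures, and the spread that the p-values measure, that between libraries, may be technical.

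The mitochondrial genome of budding yeast encodes a small set of hydrophobic subunits of the respiratory chain and ATP synthase, 1 mitoribosomal protein (VAR1), and the organelle's own rRNAs and tRNAs. It is transcribed by a dedicated phage-type polymerase into polycistronic RNAs, which are then cleaved, trimmed and, for COX1, COB and the large rRNA, spliced. Several introns carry their own reading frames, which encode maturases that help splicing, reverse transcriptases or DNA endonucleases. The libraries were made from RNA depleted of rRNA and not selected for poly(A) tails, which yeast mitochondrial mRNAs lack.

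Of the 28 rows, 19 matched the RefSeq annotation of assembly R64 (sacCer3), whose mitochondrial chromosome, here MT, has 85779 bases. The other 9 keep their systematic names, and no row was named for the 2 mitochondrial rRNAs. The coordinates and sequences below are those of R64, on the plus strand, and the mitochondrial genome of W303 itself was not used here. What a row measures depends on this map, because the intron reading frames start in the exons of their host gene. A read that lies within an exon shared by several rows cannot be assigned to 1 of them, and the files hold a separate count of ambiguous reads. COX1 (Q0045, MT 13818 to 26701, 8 exons) shares 972 of its 1605 exon bases with AI1, AI2, AI3, AI4 and AI5_ALPHA and keeps 633, in its last 3 exons. COB (Q0105, MT 36540 to 43647, 6 exons) shares 756 of 1158 exon bases with BI2, BI3 and BI4 and keeps 402, in its last 2 exons. The annotation and settings used for counting are not stated, and the 9 unmatched rows could overlap others. If counting followed this map, the rows AI1 to AI5_ALPHA and BI2 to BI4 count RNA of the introns, spliced out or not. On the same condition COX1 and COB count the ends of their mRNAs. COX2 and Q0255 overlap by 19 bases.

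The introns fall into classes that differ in how they are removed. Group II introns (aI1, aI2, aI5γ and bI1) leave as a branched lariat, and group I introns (the others in COX1 and COB, and ω of the large rRNA) are removed with the help of a free guanosine. The exon-intron borders of the introns behind the rows that the results turn on are shown with 10 exon and 20 intron bases each. Capitals mark GTGNG at the first intron base, where N is any base.
aI1 (row AI1, MT 13977 to 14006): ttatttaatgGTGCGcctctcagtgcgtat
aI2 (row AI2, MT 16461 to 16490): atgattttctGTGCGccgtttcgcttaatt
aI3 (row AI3, MT 18982 to 19011): ttttggtaaccaaaaaagatatgaaagtaa
aI4 (row AI4, MT 20975 to 21004): attctttggtcaaacagtggcccttattat
bI4 (row BI4, MT 41081 to 41110): tactttaggtcaaaatatggccttattatt
Of 13 introns in all, 4 of 4 group II introns and 0 of 9 group I introns began with GTGNG, a string that starts at 0.086% of the positions on the plus strand of the genome. The introns aI1, aI2 and aI5γ began with GTGCG, and bI1, not shown, with GTGAG. The classes were assigned by intron name, so this count does not test them.

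Gene counts per library ran from 683896 to 1671136, and the mitochondrial rows held 9677 to 18931 of them. RIO1 mRNA itself stood at 130, 112 and 93.7 CPM in Rio1-depleted libraries and 65.8, 66.3 and 62.9 CPM in control libraries (log2 fold change 0.78 ± 0.17, SE), and does not check the depletion, since auxin acts on the protein. Of the MATa markers, the alpha-factor receptor gene STE2 stood at 326 to 428 CPM over the 6 libraries, the pheromone gene MFA2 at 132 to 324 CPM and the protease gene BAR1 at 109 to 162 CPM, while the second pheromone gene MFA1 had only 2.86 to 10.7 CPM. Of the markers of the other mating type, MF(ALPHA)1 stood at 0 to 0.884 CPM, MF(ALPHA)2 at 0 to 7.89 CPM and STE3 at 0.884 to 10.0 CPM, a range like that of MFA1. CPM here are counts scaled to a common library size after TMM scaling, which sets the bulk of genes equal between libraries. Depleted library 3 stood apart from the others in the mitochondrial rows. Chi-square values over these rows were 28.2 and 22.4 per degree of freedom for its pairs with depleted libraries 1 and 2, against 7.46 for the pair of those 2 and 2.24 to 4.97 for pairs of control libraries. It also had the lowest share of multiply aligned entries (45.2%, against 53.4% to 65.9% in the other 5) and the highest share outside annotated genes (17.9%, against 11.0% to 14.5%). Over all genes it was depleted library 2 that stood apart, with chi-square values of 7.65 and 9.75 per degree of freedom against 3.15 for the other depleted pair. That library had 43220 counts in the YLR154 rows, against 403 and 691 in depleted libraries 1 and 3, and the highest share of multiply aligned entries. The part of these differences in the results was not tested.

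The mitochondrial genome gave about the same share of the unscaled gene counts in Rio1-depleted and control libraries. Its rows took 1.41%, 1.11% and 1.28% of the gene counts in Rio1-depleted libraries 1 to 3 (1.27% ± 0.15, SD, n = 3), against 1.27%, 1.27% and 1.13% in control libraries 1 to 3 (1.22% ± 0.079, SD, n = 3). The widest 95% Wilson interval, that of depleted library 1, was 1.39% to 1.44%, and such intervals cover counting error only. The groups overlapped, and the difference of 0.047 percentage points lay within the spread between libraries. With the YLR154 rows inside the rDNA left out of the total, the shares averaged 1.29% ± 0.13 and 1.23% ± 0.084 in depleted and control libraries. Such shares rest on library totals without TMM scaling. On that scale the median log2 fold change was 0.32 over all genes and 0.11 over the tested mitochondrial rows. After TMM scaling the medians were 0.01 and -0.21, so an equal share does not mean no change relative to the bulk of genes. These are bulk RNA samples, so fewer mitochondrial genomes per cell and less RNA from each genome cannot be told apart.

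Intron RNA made up most of these counts. The rows AI1 and AI2, which cover the reading frames of the group II introns aI1 and aI2, held 74.1%, 73.6% and 63.4% of the mitochondrial counts in Rio1-depleted libraries 1 to 3, against 72.9%, 75.2% and 72.3% in control libraries 1 to 3. The 8 rows of the protein genes held 18.9%, 20.9% and 30.4% in depleted libraries and 19.7%, 18.7% and 20.8% in control libraries. The 8 group I intron rows held 5.12% to 6.52% in depleted and 5.80% to 6.75% in control libraries. Depleted library 3 was thus the library with the most exon and the least group II intron RNA, and the other 5 were alike in these pooled shares. Row by row, depleted libraries 1 and 2 still differed from each other, at a chi-square value of 7.46 per degree of freedom. Pairs of control libraries had 2.24 to 4.97.

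**Figure D1:**
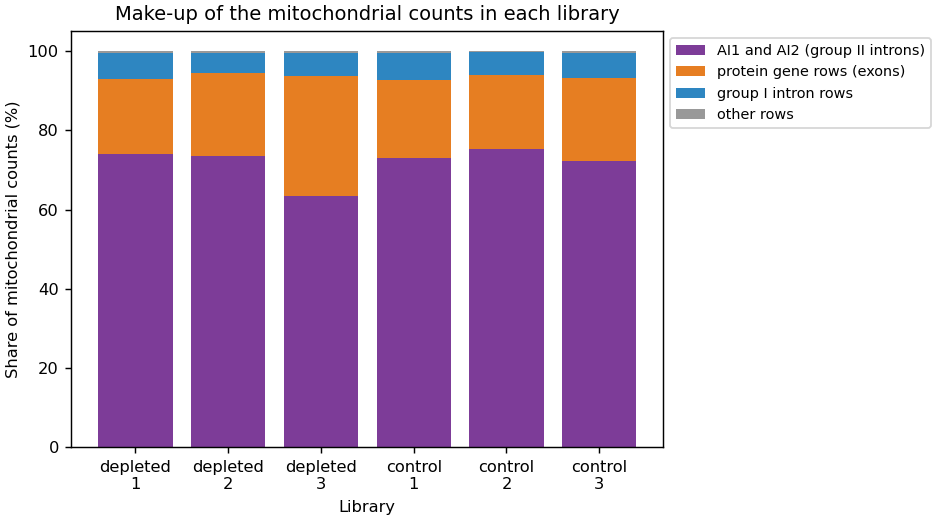
Share of the mitochondrial counts (vertical axis, %) in each library (horizontal axis) by kind of row, stacked to 100%. AI1 and AI2 take 63.4% in depleted library 3 and 72.3% to 75.2% in the other 5.

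Per base, RNA of the intron aI1 was about as abundant as that of the COB exons, the highest of any protein gene. On a scale of CPM per kb of unshared bases, AI1 averaged 2248 ± 484 in Rio1-depleted and 2855 ± 254.5 in control libraries (SD, n = 3 each), and COB, the cytochrome b subunit of complex III, 2269 ± 320 and 2584 ± 216. AI2 stood at 1168 ± 59.2 in depleted and 1429 ± 112 in control libraries. COX1, the exons of the same primary transcript as AI1 and AI2, stood at 378 ± 138 and 442 ± 40.9. AI1 was thus 5.95 times as abundant per base as the COX1 exons in depleted cells and 6.45 times in control cells, and AI2 3.09 and 3.23 times. The group I introns lay far lower, with AI4 at 225 ± 75.8 and 311 ± 26.9 and AI3 at 99.2 ± 20.3 and 153 ± 20.3 CPM per kb in depleted and control libraries.

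**Figure D2:**
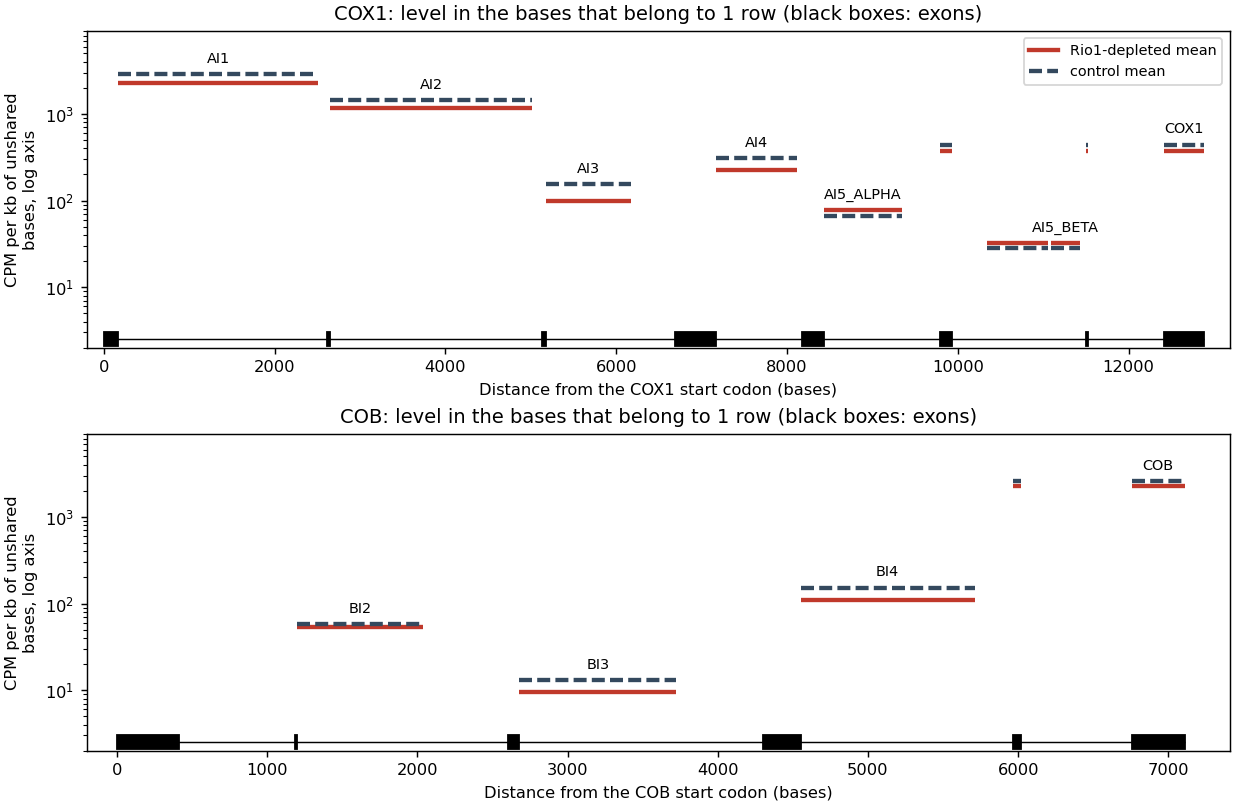
Mean level in CPM per kb of unshared bases (vertical axis, log scale) along COX1 (top) and COB (bottom), by distance from the start codon in bases, for the Rio1-depleted (solid) and control (dashed) libraries; each line spans the bases that belong to 1 row, and black boxes are exons. AI1 and AI2 lie above the COX1 exons, and BI2, BI3 and BI4 lie below the COB exons.

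Among the protein genes, levels per base ran in the order COB, COX3, COX2, COX1, OLI1, ATP6, ATP8 and VAR1 in both groups. COX1, COX2 and COX3 encode the catalytic core of cytochrome oxidase (complex IV), OLI1 the ring subunit of the ATP synthase rotor, ATP6 the stator subunit that passes protons to that ring and ATP8 a small partner of ATP6. COX3 averaged 1168 ± 462 in depleted and 985 ± 32.1 CPM per kb in control libraries, COX2 530 ± 142 and 527 ± 21.8, OLI1 348 ± 80.3 and 327 ± 90.4, and ATP6 104 ± 49.0 and 121 ± 18.5. In depleted libraries the ranges of COX2, COX1 and OLI1 overlapped each other. In control libraries those of COX1 and OLI1 did, and ATP8 and VAR1 overlapped in both groups.

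Levels tended to rise with the share of G and C, with wide exceptions. Across the 19 mapped rows, level per base and the share of G and C in the unshared bases had a Spearman correlation of 0.81 to 0.83 in depleted libraries and 0.81 to 0.84 in control libraries. The rows share the library, the amplification and the genome, are not independent, and the part of base composition in the levels was not tested. The first 120 bases of 3 genes show the range, with G and C in capitals.
OLI1 (MT 46723 to 46842, 41 G or C): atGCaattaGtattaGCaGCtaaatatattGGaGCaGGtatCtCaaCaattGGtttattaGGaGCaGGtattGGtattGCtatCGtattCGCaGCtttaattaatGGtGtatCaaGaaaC
COX3 (MT 79213 to 79332, 38 G or C): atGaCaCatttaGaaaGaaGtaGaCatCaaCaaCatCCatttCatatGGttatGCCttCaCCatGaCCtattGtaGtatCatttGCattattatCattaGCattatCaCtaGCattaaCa
VAR1 (MT 48901 to 49020, 8 G or C): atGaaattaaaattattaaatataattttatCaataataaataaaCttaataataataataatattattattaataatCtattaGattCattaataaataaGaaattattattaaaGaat
VAR1 had 10.4% G and C over its length and the lowest level, 4.09 ± 1.80 CPM per kb in depleted and 9.41 ± 6.34 in control libraries. OLI1, which lies upstream of VAR1 in the same transcription unit, had 33.3%, the highest share of the 19 rows. Its level was only 348 ± 80.3 CPM per kb in depleted and 327 ± 90.4 in control libraries. AI1, with 24.7%, stood at 2248 ± 484 and 2855 ± 254.5.

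By the main edgeR test, the share of mitochondrial rows called lower after 1 h of Rio1 depletion was near that of all genes. Of the 28 rows, 17 had enough counts to be tested, and 3 of them were lower and 0 higher in Rio1-depleted cells (edgeR quasi-likelihood test, Benjamini-Hochberg adjusted p under 0.05 over all 5195 genes tested). The 3 were AI3, AI4 and BI4, all group I intron rows. Of the 17 tested rows, 8 were group I and 2 group II intron rows. Some alternative fits called the protein gene rows COX1, ATP6 or COX3, as given below. Among all genes tested, 14.1% were called lower, 14.1% higher and 28.3% in either direction, so the 17.6% of mitochondrial rows called lower lay near the background, and no row was called higher. At an unadjusted p under 0.05 there were 6 of the 17 rows, all lower, where 19.1% of all genes were lower and 38.5% passed in either direction. The 6 were all group I or group II intron rows, as were most of the rows tested. DESeq2 called 2 lower and 0 higher, where it called 11.5% of all genes lower, 10.6% higher and 22.1% in either direction. Scaling by RLE size factors left the 3 calls as they were, where 14.3% of all genes were lower and 28.1% called in either direction. With limma-voom, 5 of the 17 rows were lower, a larger share than the 14.4% of all genes called lower (28.7% in either direction). None of the 17 tested rows had a 2-fold change, against 463 of all genes tested (8.91%). For 16 of the 17 rows the 95% interval of the log2 fold change lay between -1 and 1, and the exception was BI3, the least abundant, with an interval of -1.24 to 0.48. The median log2 fold change was -0.21 over the 17 rows and 0.01 over all genes tested.

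**Figure D3:**
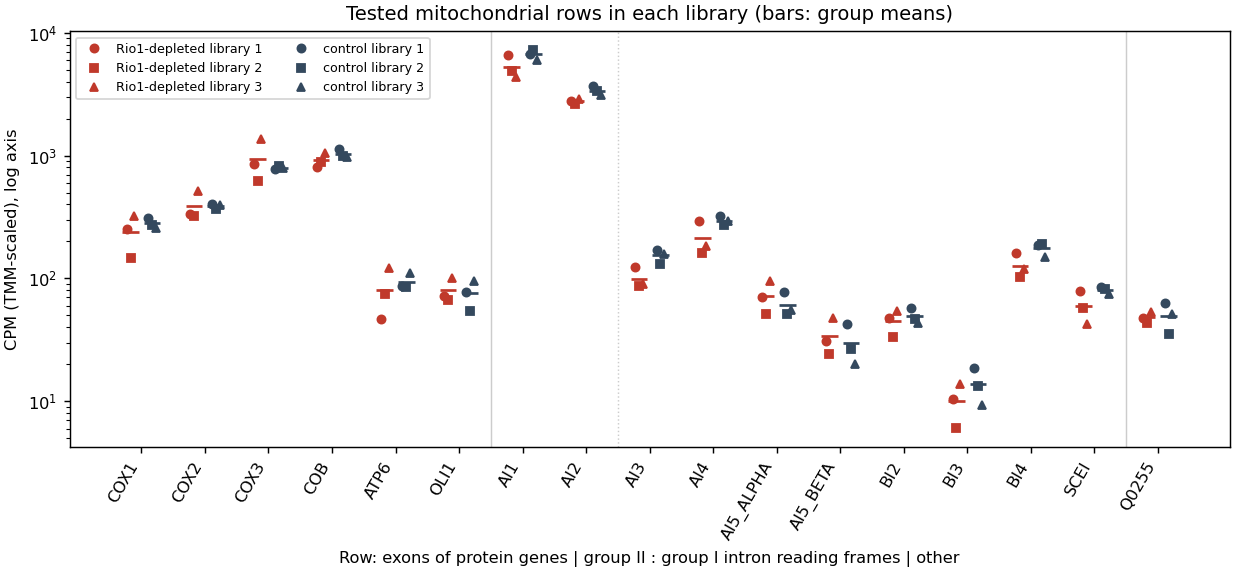
CPM (vertical axis, log scale) of the 17 tested mitochondrial rows (horizontal axis) in each library, with depleted libraries in red on the left and control libraries in dark blue on the right of each pair and bars at the group means. The groups separate for AI2 and AI3, both lower in depleted libraries, and overlap for the other 15 rows. Of all genes tested, 40.6% separate, 20.0% with the depleted libraries lower.

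The direction of the small changes depends on scaling. When libraries were scaled by their totals alone, the median log2 fold change over all genes moved to 0.32, the median of the mitochondrial rows to 0.11, and no row was lower and 1, COX3, was higher (log2 fold change 0.56, adjusted p = 0.0265), where 6.03% of all genes were lower, 33.6% higher and 39.7% called in either direction. Changes are therefore stated relative to the bulk of genes, as TMM sets it. The count of 3 also moved with single libraries. Without depleted library 1, 5 rows were lower (AI1, AI3, AI4, BI4 and SCEI), where 12.7% of all genes were lower, 12.3% higher and 25.0% called in either direction. Without depleted library 2, AI3 alone was lower and COX3 was higher (0.47, adjusted p = 0.0282), where 13.1% of all genes were lower, 12.8% higher and 25.9% called in either direction. Without depleted library 3, 4 rows were lower (COX1, AI2, AI3 and ATP6) and 0 higher, where 13.2% of all genes were lower, 11.9% higher and 25.1% called in either direction. Without control library 1, AI3 alone was lower, where 12.0% of all genes were lower, 11.1% higher and 23.1% called in either direction.

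**Figure D4:**
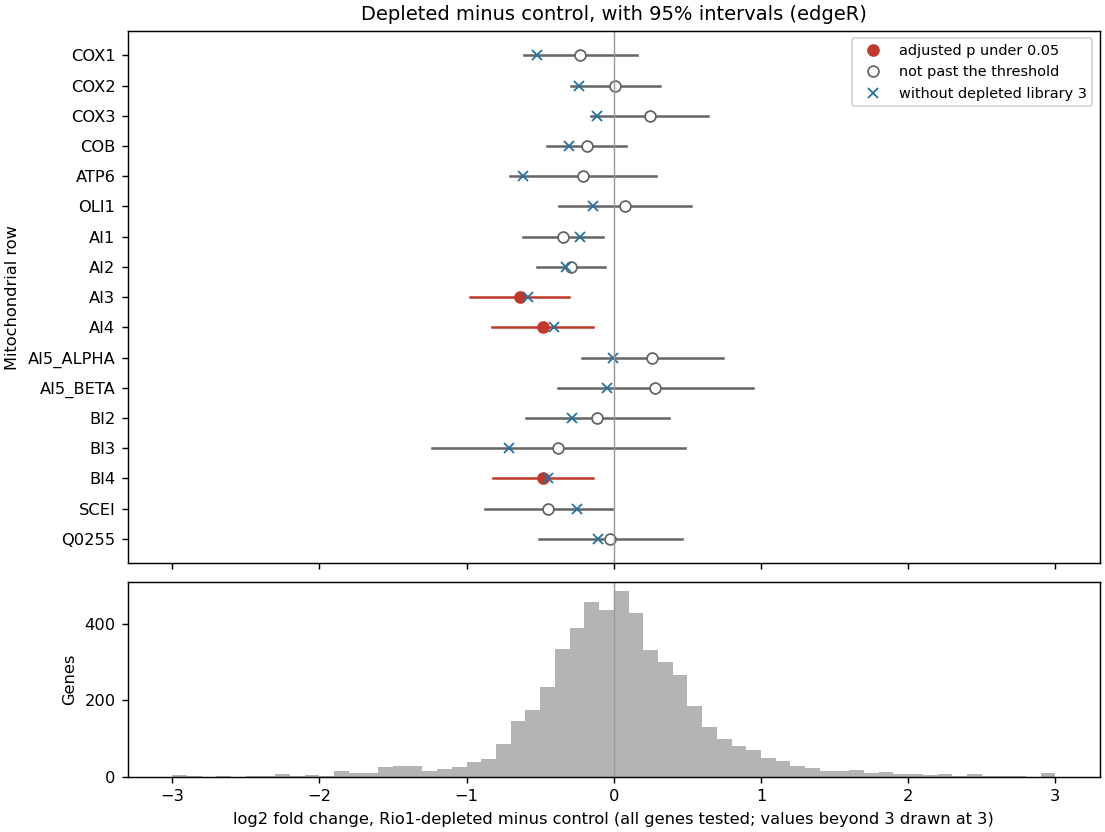
Top, log2 fold change (Rio1-depleted minus control, horizontal axis) of each tested mitochondrial row with its 95% interval from edgeR, filled where the adjusted p was under 0.05, with crosses for the value without depleted library 3; bottom, the number of genes at each log2 fold change among all 5195 tested. AI3, AI4 and BI4 are filled, and the crosses of COX1, COX2, COX3 and ATP6 lie left of their points.

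AI3, the row of a DNA endonuclease reading frame in the group I intron aI3 of COX1, showed the largest fall among the 17 tested rows. It stood at 123, 86.2 and 89.7 CPM in Rio1-depleted libraries 1 to 3, against 172, 132 and 159 CPM in control libraries 1 to 3. All depleted libraries lay below all control libraries, an order found in 20.0% of all genes tested, with the reverse in 20.6%. Its log2 fold change was -0.64 ± 0.16 (SE over 3 libraries a group), 1.56-fold lower, with an adjusted p of 0.00528. It was lower in 14 of 16 alternative analyses, the exceptions being library totals only (log2 fold change -0.32) and the test against 1.5-fold.

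AI4 encodes a DNA endonuclease with latent maturase activity in the next intron, aI4. It stood at 296, 160 and 185 CPM in depleted libraries and 322, 271 and 294 CPM in control libraries. Depleted library 1 lay within the control range and the other depleted libraries below it. Its log2 fold change was -0.48 ± 0.16 (SE), with an adjusted p of 0.0334. BI4, whose maturase helps to splice both bI4 and aI4, stood at 161, 102 and 119 CPM in depleted and 189, 192 and 149 CPM in control libraries. It too overlapped only through depleted library 1, and its log2 fold change was -0.48 ± 0.16 (SE), with an adjusted p of 0.0326. AI4 and BI4 were each called in 8 of the 16 alternative analyses. Neither was called by DESeq2, nor without depleted library 2 or 3 or control library 1, and AI4 was also lost without control library 3 and BI4 without control library 2.

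The other group I intron rows did not pass the test and did not all lean one way. AI5_ALPHA, a DNA endonuclease reading frame, stood at 70.03, 51.4 and 94.7 CPM in depleted and 77.2, 51.3 and 55.5 CPM in control libraries, with a log2 fold change of 0.26 ± 0.23 (SE). AI5_BETA ran from 24.4 to 47.3 CPM in depleted and 20.1 to 42.9 CPM in control libraries, with 0.28 ± 0.32 (SE). Both came close to 0 without depleted library 3 (-0.0046 and -0.04). The maturase rows overlapped between the groups too. BI2 ran from 33.1 to 54.2 CPM in depleted and 43.5 to 57.2 CPM in control libraries (log2 fold change -0.11 ± 0.23, and -0.29 without depleted library 3), and BI3 from 6.09 to 13.8 CPM in depleted and 9.36 to 18.6 CPM in control libraries (-0.38 ± 0.41, and -0.71 without depleted library 3). SCEI, the homing endonuclease of the large rRNA intron ω and the source of the laboratory enzyme of that name, stood at 79.1, 57.5 and 42.4 CPM in depleted and 85.8, 81.4 and 74.2 CPM in control libraries. Its log2 fold change was -0.44 ± 0.21, with an adjusted p of 0.119, and it was -0.25 without depleted library 3.

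The group II intron rows lay close to the threshold and passed it in some of the alternative analyses. AI1 stood at 6523, 4873 and 4360 CPM in depleted and 6763, 7212 and 6034 CPM in control libraries. Depleted library 1 lay within the control range. Its log2 fold change was -0.34 ± 0.13 (SE; 95% interval -0.62 to -0.07), with an adjusted p of 0.053. AI2 stood at 2770, 2612 and 2890 CPM in depleted and 3651, 3339 and 3124 CPM in control libraries. All depleted libraries lay below all control libraries, as in 20.0% of all genes tested. The change in AI2 was -0.29 ± 0.11, with an adjusted p of 0.0571. These are the most deeply counted mitochondrial rows, with 2136 counts or more in every library, so the limit on them is the spread between libraries and the choice of scale rather than counting. AI1 was called lower in 5 of the 16 alternative analyses (no count filter, limma-voom, the replicate block, and without depleted library 1 or control library 3). AI2 was called lower in 4 (DESeq2 with an adjusted p of 0.0311, limma-voom, no count filter, and without depleted library 3). Scaled by totals alone, their log2 fold changes were -0.029 and 0.026.

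Ratios within a library do not depend on scaling. Per base, AI1 stood to the COX1 exons as 7.06, 8.98 and 3.69 in Rio1-depleted libraries 1 to 3, against 5.93, 7.17 and 6.32 in control libraries 1 to 3. For AI2 the ratios were 2.97, 4.76 and 2.42 in depleted and 3.17, 3.29 and 3.24 in control libraries. For AI3 they were 0.310, 0.369 and 0.176 in depleted and 0.35, 0.305 and 0.387 in control libraries, and for AI4 0.786, 0.725 and 0.385 in depleted and 0.693, 0.661 and 0.757 in control libraries. In each case depleted library 3 lay below the control range, and the groups overlapped. BI4 stood to the COB exons as 0.069, 0.040 and 0.039 in depleted and 0.057, 0.067 and 0.053 in control libraries. Of 9 intron-to-exon ratios, the groups separated in 1, AI5_ALPHA to COX1, at 0.192, 0.240 and 0.203 in depleted and 0.172, 0.129 and 0.147 in control libraries. Of the exon ratios, COX3 to COX1 also separated, at 2.67, 3.32 and 3.31 in depleted and 1.97, 2.37 and 2.38 in control libraries. The groups overlapped in the others computed, COX2 to COX1, COX3 to COX2, COB to COX1, ATP6 to COX1 and OLI1 to ATP6. These ratios were chosen after the values were seen. No test over 3 against 3 libraries can give an exact permutation p under 0.1, and none of these ratios was tested.

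None of the 6 tested protein gene rows changed by the test. COX1 stood at 250, 147 and 320 CPM in depleted and 309, 272 and 259 CPM in control libraries, with a log2 fold change of -0.23 ± 0.18 (SE; 95% interval -0.61 to 0.16). COX2 stood at 337, 324 and 511 CPM in depleted and 402, 371 and 393 CPM in control libraries, with a value of 0.01 ± 0.14. COX3 stood at 855, 626 and 1358 CPM in depleted and 779, 828 and 787 CPM in control libraries, with 0.25 ± 0.19. In all 3 genes depleted library 3 was the highest of the 6 libraries and depleted library 2 the lowest, while the control libraries lay close together. Without depleted library 3 the values were -0.52 for COX1 (adjusted p = 0.0217), -0.24 for COX2 and -0.12 for COX3.

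COB stood at 801, 882 and 1053 CPM in depleted and 1138, 998 and 979 CPM in control libraries, with a log2 fold change of -0.19 ± 0.13 (95% interval -0.45 to 0.08), and -0.30 without depleted library 3. ATP6 stood at 46.7, 74.9 and 122 CPM in depleted and 87.2, 84.9 and 111 CPM in control libraries, with -0.21 ± 0.24, and without depleted library 3 it was called lower (-0.62, adjusted p = 0.0404). OLI1 stood at 72.6, 67.0 and 102 CPM in depleted and 77.2, 53.9 and 95.6 CPM in control libraries, with 0.08 ± 0.21, and -0.14 without depleted library 3. The spread between depleted libraries was wide in COX1, COX3 and ATP6, so changes within their intervals were not detectable at this number of libraries. Q0255, the reading frame that overlaps the end of COX2, ran from 43.5 to 53.3 CPM in depleted and 35.4 to 62.9 CPM in control libraries, with a log2 fold change of -0.02 ± 0.23, and -0.11 without depleted library 3.

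The 11 rows that were not tested held 131 counts in all, and at most 14 in any library. ATP8 had 1, 0 and 4 counts in depleted and 3, 5 and 2 in control libraries. VAR1 had 4, 3 and 7 counts in depleted and 14, 8 and 10 in control libraries, which at 5.19, 2.61 and 6.90 CPM in depleted and 20.0, 7.08 and 6.69 CPM in control libraries overlapped. Q0182 had 14, 3 and 8 counts in depleted and 5, 5 and 14 in control libraries, and Q0297 had 2, 0 and 5 in depleted and 5, 1 and 4 in control libraries. Q0032 had 1 count in depleted library 3, and Q0142 and Q0143 had 2 and 1 in control library 1. The rows Q0010, Q0017, Q0092 and Q0144 had 0 of 6339823 gene counts, which allows a level of up to 0.473 CPM.

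The mitochondrial subunits were set beside the nuclear genes for the complexes they enter. Of 32 tested nuclear subunit genes of complexes III, IV and V, 13 were lower and 0 higher in Rio1-depleted cells. Their median log2 fold change was -0.33. Among all genes tested, 14.1% were called lower and 14.1% higher. Scaled by totals alone, 5 of the 32 were lower and 2 higher, and their median was -0.02. On that scale 6.03% of all genes were lower and 33.6% higher. In cytochrome oxidase, where COX1, COX2 and COX3 stood at -0.23, 0.01 and 0.25, 3 of 9 nuclear genes were lower. They were COX6 (75.6 ± 18.5 CPM in depleted and 166 ± 25.2 in control libraries, SD, n = 3 each; log2 fold change -1.09 ± 0.17, SE), COX4 (-0.92 ± 0.18) and COX8 (-0.61 ± 0.12). In complex III, where COB stood at -0.19, 2 of 9 were lower, the core protein genes COR1 (-0.65 ± 0.13) and QCR2 (-0.52 ± 0.11). In ATP synthase, where ATP6 and OLI1 stood at -0.21 and 0.08, 8 of 14 were lower, among them ATP1 (-0.71 ± 0.11), the catalytic head subunit alpha, ATP17 (-0.69 ± 0.13), ATP20 (-0.68 ± 0.19) and ATP15 (-0.61 ± 0.17). COX8, QCR2, ATP20 and ATP15 were not called with totals alone. ATP20 was also not called without depleted library 2 (adjusted p = 0.0596), nor ATP15 without depleted library 3 (0.0506) or control library 1 (0.0667). The difference between subunits of mitochondrial and nuclear origin was not tested.

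**Figure D5:**
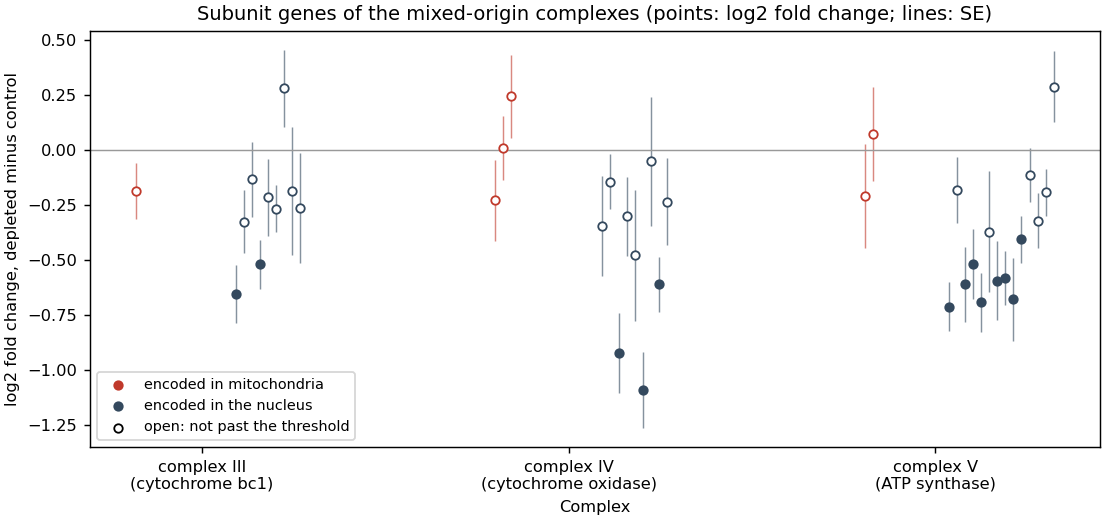
Log2 fold change (Rio1-depleted minus control, vertical axis) with its SE for subunit genes of complexes III, IV and V, encoded in mitochondria (red, left) or in the nucleus (dark blue, right), with filled points where the adjusted p was under 0.05. All 6 mitochondrial genes are open, and 13 of 32 nuclear genes are filled, all below 0. Among all genes tested, 14.1% were called lower and 14.1% higher.

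The nuclear genes that act on mitochondrial RNA had calls in both directions, as did all genes tested (14.1% higher and 14.1% lower). Of 2 genes of mitochondrial transcription, MTF1, the specificity factor of the polymerase, rose to 65.0 ± 7.73 CPM in depleted libraries, against 41.0 ± 2.15 in control libraries (log2 fold change 0.64 ± 0.20, adjusted p = 0.0213), and the polymerase gene RPO41, named after its value was seen, had -0.21 ± 0.12. MTF1 was not called by DESeq2 (adjusted p = 0.0572), nor without depleted library 1 or any 1 control library (0.0592 to 0.0786). Of 15 genes of mitochondrial RNA processing, splicing and decay, 2 were higher and 3 lower, where 14.1% of all genes were called in each direction. DESeq2 called 1 of the 15 higher and 2 lower, where it called 10.6% of all genes higher and 11.5% lower. Scaling by totals alone gave 6 higher and 1 lower, where 33.6% of all genes were higher and 6.03% lower. RPM2, the protein subunit of mitochondrial RNase P, which matures the tRNAs, fell (-0.91 ± 0.19), as did MTF2 (-0.76 ± 0.23), which acts on mitochondrial mRNA stability and splicing, and PET127 (-0.55 ± 0.18), needed for processing of RNA 5′ ends. MNE1, a splicing factor for the group I intron aI5β, rose (0.64 ± 0.21), and so did the DEAD-box helicase gene MSS116 (0.40 ± 0.11), which helps introns of both groups fold and which falls outside the rule for named genes. MNE1 and PET127 were not called by DESeq2. MNE1 was also lost without depleted library 1 or 3 or control library 2 or 3, PET127 without depleted library 1 or 3 or control library 1 or 2, and MTF2 without depleted library 1 or control library 2. The degradosome genes SUV3 and DSS1, also outside that rule and chosen after their values were seen, as MSS116 was, had log2 fold changes of 0.12 and 0.21 and did not pass the test.

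The 19 translational activators and partners, each of which acts on the mRNA of 1 or 2 mitochondrial genes, were not called. Of 17 tested, 0 were higher and 0 lower, with a median of -0.0017, and DESeq2 also called 0. Of all genes tested, edgeR called 28.3% and DESeq2 22.1% in either direction. With library totals only, 4 of the 17 were higher, where 33.6% of all genes were. MSS51, which couples COX1 translation to assembly of the enzyme, had 137 ± 5.31 CPM in depleted and 117 ± 9.33 in control libraries (log2 fold change 0.22 ± 0.13), and CBP3, which acts on cytochrome b, had -0.0017 ± 0.19. Among 33 genes for proteins of the small mitoribosomal subunit, which VAR1 joins, 0 were higher and 0 lower by edgeR and by DESeq2. Their median was 0.15. With library totals only, 16 of them were higher (33.6% of all genes). The 2 most abundant, MRP51 and NAM9, had log2 fold changes of 0.17 ± 0.13 and 0.03 ± 0.14. Of 11 genes of mitochondrial DNA maintenance, 2 were higher and 1 lower, where 14.1% of all genes were called in each direction. The damage-inducible nuclease gene DIN7 rose (1.67 ± 0.31, adjusted p = 0.000481), as did MHR1 (0.47 ± 0.17), a recombination factor. RIM1, the single-strand DNA binding protein gene, fell (-0.68 ± 0.16). MHR1 had an adjusted p of 0.0485 and lost its call with RLE scaling, no count filter, the replicate block and DESeq2 (0.136) and without any 1 library (0.0591 to 0.167). DESeq2 called 1 of these 11 genes higher and 1 lower (10.6% and 11.5% of all genes). Scaling by totals alone gave 4 higher and 0 lower (33.6% and 6.03% of all genes), with RIM1 at an adjusted p of 0.075. The genome's polymerase gene MIP1 and packaging protein gene ABF2, named after their values were seen, had -0.10 and 0.37 and did not pass the test.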

How the data were processed

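Per the labels' protocols, hot phenol RNA was freed of rRNA by Ribo-Zero Gold and made into ScriptSeq v2 libraries. The files hold read counts per gene as deposited, not normalized, with 5 summary rows that stayed out of library sizes. The submitters' processing notes name TopHat2 2.0.8, HTSeq, DESeq and sacCer3. No settings, strand option or annotation are given in the sources used here. Multiply aligned reads (45.2% to 65.9% of entries) and ambiguous reads (0.81% to 1.46%) are in no gene's count.

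All genes were fitted in edgeR 4.0.16 under R 4.3.3, with TMM and the quasi-likelihood test, after filterByExpr (minimum count 10, minimum total 15). Benjamini-Hochberg adjusted p under 0.05 made a call. SE is the absolute log2 fold change over the square root of F, and 95% intervals use the degrees of freedom of the fit. No pair of libraries was identical. CPM are TMM-scaled, and levels per kb divide them by R64 bases that belong to 1 row, assuming that counting used the R64 exons. The fit was tested on simulated data. Alternatives were RLE, library totals, scaling from nuclear rows, scaling without YLR154 rows, 2 other count filters, DESeq2 1.42.0, limma-voom 3.58.1, each library left out, a replicate block and glmTreat at 1.5-fold. Members and lists were chosen with earlier results of these data known. Every mitochondrial row is reported. Each nuclear list is represented by up to 4 called members, those that changed most, or, with no call, by its 2 most abundant.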

Additional observations from a re-analysis of the deposited data

How the results depend on the processing

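The 17 tested mitochondrial rows were recomputed under 16 alternatives. RLE, scaling from nuclear rows only and library sizes without the YLR154 rows gave the same 3 calls (AI3, AI4 and BI4). The count of 3 lower became 0 with library totals only, 0 when tested against 1.5-fold, 1 with a mean of at least 50 counts, 5 with no count filter and 5 in limma-voom, and the count of 0 higher became 1 with library totals only. When 1 library was left out, 1 to 5 rows were lower and 0 to 1 higher. The median of the rows, -0.21, became 0.11 with library totals only and ran from -0.29 to -0.08 without 1 library. The difference in share of gene counts, 0.047 percentage points, ran from -0.025 to 0.126 without 1 library and was 0.021 points of all entries. Of 110 related nuclear genes tested in the main fit, 22 were called, where 28.3% of all genes were. The count was 39 with library totals only, where 39.7% of all genes were called. It was 2 against 1.5-fold and 16 to 22 without 1 library. The share of all genes called is not given here for the 2 other count filters, the test against 1.5-fold or the replicate block.

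Rows that were not called turned sign as follows, and the cause was not tested. With library totals only, COX1 stood at 0.091, AI2 at 0.026, ATP6 at 0.11, COB at 0.13, BI2 at 0.20, Q0255 at 0.29 and the nuclear gene CBP3 at 0.31. COX2 was -0.010 with no count filter and -0.018 in limma-voom. Q0255 was 0.013 with a mean of at least 50 counts and 0.017 in limma-voom, and CBP3 0.034 and 0.053. Without 1 library, values ran from -0.52 to 0.040 for COX1, -0.62 to 0.027 for ATP6, -0.29 to 0.089 for BI2, -0.0046 to 0.48 for AI5_ALPHA, -0.043 to 0.55 for AI5_BETA, -0.15 to 0.31 for OLI1, -0.24 to 0.13 for COX2, -0.24 to 0.11 for Q0255, -0.12 to 0.47 for COX3, -0.11 to 0.11 for NAM9 and -0.23 to 0.087 for CBP3.

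The labels number the libraries 1 to 3 in each group without stating a pairing, and deviations of same-numbered libraries correlated at -0.057, -0.001 and 0.077, so the numbers were not used to pair them. With the replicate block, 4 mitochondrial rows were lower (AI1, AI3, AI4 and BI4), 0 were higher, 23 related nuclear genes were called, the median was -0.21, COX2 was -0.011 and CBP3 0.00017. Depth limits ATP8, VAR1 and BI3, with at most 15 counts in any library.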
